A study of Homo sapiens with 6 samples.

Results

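GC-rich promoter peaks were ATAC-seq peaks whose centre lay within 1 kb of the start of a protein-coding transcript and whose central 200 bp had a GC content of at least 60% in the hg38 reference. ATAC-seq measures accessible chromatin by the density of transposase insertions, and 33894 of the 171517 peaks in the count table met this rule, or 19.8%. They were measured in naive human embryonic stem cells (nES cells) of the H9 line, a widely used embryonic stem cell line, grown in tt2iLGö medium at low oxygen on mouse feeder cells that were depleted before use. The 3 control libraries came from cells given vehicle (DMSO in the labels, 0 mM in the methods), and the other 3 from cells given 4 mM dm-αKG, a cell-permeable dimethyl ester of the TCA cycle metabolite α-ketoglutarate, for 24 h. All 6 libraries came from one cell line in a single experiment with 3 biological replicates per treatment, so that the p-values measure the spread between these replicates. A change in the number of cells with an open site and a change in openness within each cell cannot be told apart in these bulk libraries.

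Most human promoters of broadly used genes lie in CpG islands, stretches rich in G and C in which CpG dinucleotides escape the loss seen elsewhere in the genome. Such promoters are usually unmethylated, bind factors such as SP1, NRF1, NFY and the ETS family, and keep a nucleosome-depleted region just upstream of the start, flanked downstream by the first positioned nucleosome of the gene. Developmental regulators also have CpG island promoters, many of which are held by Polycomb proteins in stem cells. α-Ketoglutarate is a co-substrate of the dioxygenases that demethylate histones and DNA.

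The windows below show how GC content and CpG content can differ. All are written 5′ to 3′ on the strand of the nearest gene, with the build hg38, CpG dinucleotides in capitals and any part inside an annotated untranslated region left out. The first 2 belong to peaks that were less accessible with dm-αKG, the next 3 to peaks that were more accessible, and the last 2 are from the 5 peaks with the highest control counts.
MTA2 (chr11:62599318-62599428, minus strand): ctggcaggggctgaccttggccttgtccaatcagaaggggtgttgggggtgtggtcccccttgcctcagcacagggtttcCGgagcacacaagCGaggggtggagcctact
PDE6B (chr4:625136-625335, plus strand): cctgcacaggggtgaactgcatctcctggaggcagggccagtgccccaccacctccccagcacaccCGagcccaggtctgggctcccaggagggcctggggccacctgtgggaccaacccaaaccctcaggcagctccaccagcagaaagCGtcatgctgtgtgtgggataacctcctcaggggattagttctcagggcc
GDF15 (chr19:18374461-18374660, plus strand): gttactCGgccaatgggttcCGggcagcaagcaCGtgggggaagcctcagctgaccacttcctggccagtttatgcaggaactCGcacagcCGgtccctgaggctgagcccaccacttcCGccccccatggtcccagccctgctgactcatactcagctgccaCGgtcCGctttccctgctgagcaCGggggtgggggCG
H2AX (chr11:119094966-119095124, minus strand): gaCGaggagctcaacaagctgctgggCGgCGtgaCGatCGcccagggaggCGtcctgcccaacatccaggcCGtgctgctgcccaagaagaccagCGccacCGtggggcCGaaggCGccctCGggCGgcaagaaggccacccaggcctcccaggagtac
EP300 (chr22:41092471-41092591, plus strand): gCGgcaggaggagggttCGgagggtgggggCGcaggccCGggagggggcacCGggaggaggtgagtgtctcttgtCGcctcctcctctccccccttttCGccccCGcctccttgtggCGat
KAT6B (chr10:74826275-74826412, plus strand): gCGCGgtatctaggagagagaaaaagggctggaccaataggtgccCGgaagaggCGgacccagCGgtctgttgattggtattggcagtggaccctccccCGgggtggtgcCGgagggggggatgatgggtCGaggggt
COX14 (chr12:50111913-50112081, plus strand): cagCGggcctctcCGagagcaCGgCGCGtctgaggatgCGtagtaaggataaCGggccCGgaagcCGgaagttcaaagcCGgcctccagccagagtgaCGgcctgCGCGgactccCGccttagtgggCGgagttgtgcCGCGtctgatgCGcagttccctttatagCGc
The 2 less accessible peaks had a GC content of 61% and 65% over their full windows but held only 2 CpG each. CpG observed over expected, the number of CpG relative to the number that the C and G content would give by chance, was 0.108 for MTA2 and 0.0955 for PDE6B. The 3 more accessible peaks held 10, 19 and 16 CpG over their full windows, with ratios of 0.47 for GDF15, 0.734 for H2AX and 0.678 for EP300.

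As a class, the peaks had the features of CpG island promoters. The median GC content was 70% (quartiles 65.5% and 75.0%, highest 91.0%) and the median CpG observed over expected was 0.814, against 55.5% and 0.339 over all peaks. They made up 74.3% of the 45627 promoter peaks. Within 1 kb of a member lay a start of 14537 of the 19676 protein-coding genes. The median distance to the nearest start was 173 bp, and 17081 peaks were centred upstream of it against 16813 at or downstream of it. Starts on both strands lay within reach of 3178 members (9.38%), as at divergent gene pairs. Of 13841 nearest genes, 10055 had at least 2 members and 1044 at least 5, so that neighbouring members often share a promoter and are not independent.

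GC-rich promoter peaks were the most accessible of the 4 classes made by GC content and promoter position. Their median normalised count, the count after scaling every library to the same effective size, was 117 in control cells, against 70.1 for GC-poor promoter peaks, 77.1 for GC-rich peaks away from promoters and 51 for GC-poor peaks away from promoters. In each library the median log2 CPM was higher than that of GC-poor promoter peaks, by 0.65 to 0.74, and higher than that of GC-rich peaks elsewhere, by 0.50 to 0.67 (exact permutation test by sign flips within 6 libraries, two-sided, p = 0.03125 for each, the smallest possible and unchanged by adjustment over 3 tests). On the scale of the authors' peak caller, in contrast, members were below all peaks. Fold enrichment over local background had a median of 7.46 for members in the control peak list and 8.80 for all peaks, and of 7.23 and 8.89 in the dm-αKG list.

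Motif letters differed in both directions between members and all windows. Both strands of each 200 bp window were searched, and a match is a description of the sequence only. The GC box GGGCGG, read by SP and KLF factors, was present in 64.4% of members and 26.3% of all windows. The ETS letters CCGGAAG were in 8.0% of members against 3.37% of all windows, and the NRF1 letters GCGCATGC in 2.13% against 0.926%. The octamer ATGCAAAT, read by OCT factors, was in 0.372% of members against 2.3% of all windows, and the AP-1 letters TGANTCA in 1.90% against 6.33%. The CCAAT letters of NFY were less frequent in members (15.6%) than in all windows (20.4%). Members with them had a median control count of 269.8, against 106.5 without them, and those with the CRE letters TGACGTCA, read by CREB and ATF factors, 255 against 116. AP-1 members, in contrast, had 115 against 117.

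The share of counts in GC-rich promoter peaks was higher in every dm-αKG library. It was 32.8%, 32.7% and 32.5% in control replicates 1 to 3 and 35.4%, 35.2% and 33.9% in dm-αKG replicates 1 to 3. The treatments did not overlap, and dm-αKG replicate 3, the shallowest library, lay nearest to the controls. Means were 32.7% ± 0.137 (SD, n = 3) and 34.8% ± 0.767 (SD, n = 3), a difference of 2.15 percentage points (exact permutation test on the log2 share, two-sided, p = 0.1, the smallest that 3 against 3 allows; adjusted over 12 such tests, p = 0.133). GC-poor peaks away from promoters moved the other way, from 41.3% ± 0.175 to 38.5% ± 0.901 (exact permutation test, p = 0.1). The shares of the classes make up all in-peak counts of a library, so that a rise in members requires a fall elsewhere. Shares and scaled counts are relative, and a gain at members cannot be told apart from a loss at other peaks. GC-poor promoter peaks went from 8.14% ± 0.083 to 8.44% ± 0.0509, so that the share of members within promoter peaks alone differed by 0.0076 on the log2 scale. Wilson 95% intervals of the single shares of members reached no more than 0.026 percentage points to each side and cover counting error only.

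**Figure D1:**
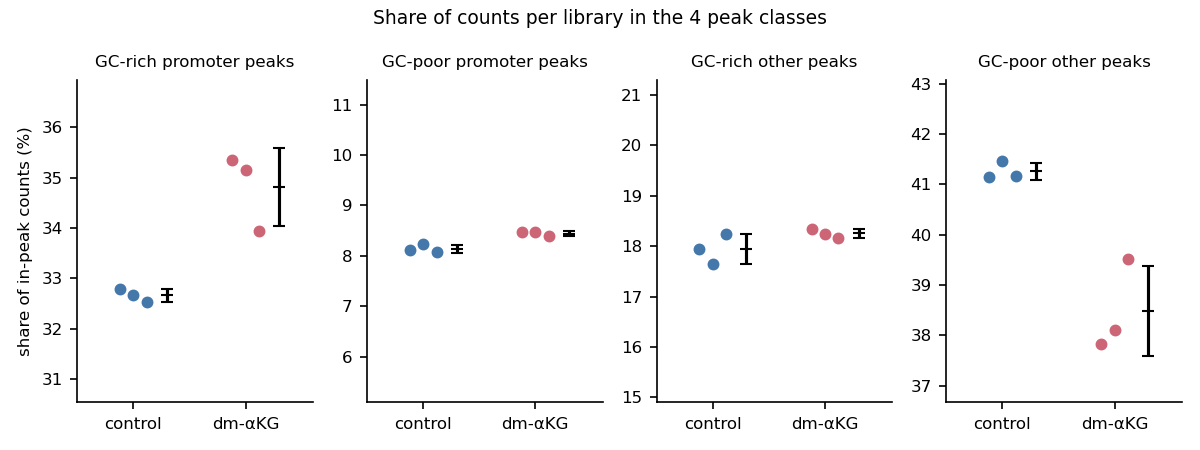
Share of all in-peak counts (%) falling in each of 4 peak classes, with 1 point per library and the mean ± SD (n = 3) beside them; each panel spans the same number of percentage points. In GC-rich promoter peaks the 3 dm-αKG libraries lay between 33.9% and 35.4%, above the controls at 32.5% to 32.8%.

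Peak by peak, large changes were rarer among GC-rich promoter peaks than in the table as a whole, and small relative increases were common. At the study's thresholds (adjusted p below 0.01 and a log2 fold change beyond 1 in either direction, edgeR quasi-likelihood test), 20 members were less accessible and 130 more accessible with dm-αKG. That is 0.059% and 0.384% of members, against 1.96% less and 0.782% more accessible over all 171517 peaks. At adjusted p below 0.01 alone, 382 members (1.13%) were lower and 1664 (4.91%) higher, against 6.54% and 3.34% of all peaks. All 3 dm-αKG libraries were above all 3 controls at 7834 members (23.1%, against 15.5% of all peaks) and below them at 2040 (6.02%, against 16.9%). The median log2 fold change was 0.11 (quartiles −0.03 and 0.28), against 0.01 over all peaks. Without dm-αKG replicate 3 the count of more accessible members was 213 instead of 130, and without dm-αKG replicate 1 the count of higher members was 670 instead of 1664. The study applied its thresholds with DESeq2, so that the edgeR counts are not those of its test. With DESeq2, 16 members were less and 87 more accessible.

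Relative to the control mean, the median member was at 0.01, 0.004 and −0.007 on the log2 scale in control replicates 1 to 3 and at 0.14, 0.13 and 0.06 in dm-αKG replicates 1 to 3. The difference between treatments was 0.11, the groups were apart, and the exact permutation test gave its smallest value (p = 0.1, adjusted p = 0.133). GC-poor promoter peaks differed between treatments by 0.07 on the same scale. The difference between the 2 promoter classes changed by 0.04, with SDs of 0.017 in control and 0.027 in dm-αKG libraries. Of the 3 dm-αKG libraries, 2 lay above all controls, so that the treatments overlapped (exact permutation test, two-sided, p = 0.3, adjusted p = 0.3).

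GC content itself went with the change, at promoters and away from them. Among peaks away from promoters the median log2 fold change went from −0.15 below 40% GC to −0.01 at 60 to 65% and 0.14 at 80% or more. Promoter peaks lay above them in every bin, with medians of 0.05 against −0.08 at 45 to 50% GC, 0.10 against −0.01 at 60 to 65%, 0.11 against 0.06 at 70 to 75% and 0.15 against 0.14 at 80% or more. The gap between promoter and other peaks was thus narrowest at the highest GC content. With members and GC-rich peaks elsewhere compared within bins of 1 percentage point of GC, for 33612 members, the median member was 0.05 higher with dm-αKG than its GC-matched peaks, and the 3 dm-αKG libraries lay above the 3 controls (exact permutation test, p = 0.1, adjusted p = 0.133). Away from promoters the slope of the log2 level on GC, per 10 percentage points, was 0.07, 0.06 and 0.03 in the dm-αKG libraries and −0.0018, −0.03 and 0.03 in the controls, so that control replicate 3 and dm-αKG replicate 3 had the same slope. When a GC offset was fitted for each library over all peaks, the median log2 fold change of members was 0.028, and 77 members were more accessible instead of 130. The part of a library's own GC dependence in these results was not tested.

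**Figure D2:**
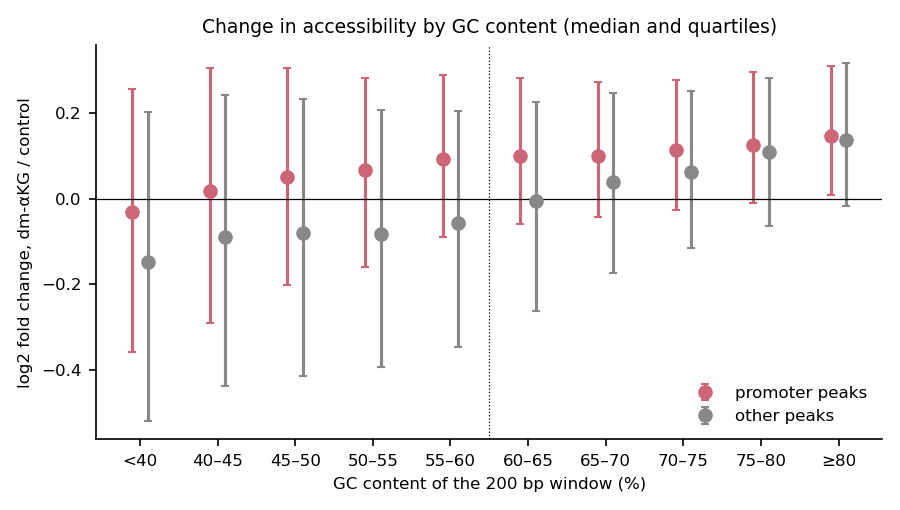
Log2 fold change (dm-αKG over control) of promoter and other peaks by the GC content of the central 200 bp (%); points are medians, bars run from the first to the third quartile, and the dotted line marks the 60% limit. Medians of other peaks went from −0.15 to 0.14 with GC content, and those of promoter peaks lay above them in every bin.

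Position relative to the start divided the members further. Control counts peaked just upstream of the start, with a median of 259 between 50 and 100 bp upstream, and were 72 to 78 beyond 100 bp downstream. The fold changes had the opposite profile. Median log2 fold changes were 0.07 between 50 and 100 bp upstream and 0.06 from there to 250 bp upstream, but 0.19 between 100 and 250 bp downstream and 0.17 between 500 and 1000 bp downstream. Of the 12685 members centred more than 100 bp downstream, 811 (6.39%) were higher at adjusted p below 0.01 and 78 (0.615%) lower. Of the 12785 members within 100 bp of the start, 526 (4.11%) were higher and 158 (1.24%) lower. Relative to the control mean, the median downstream member was at 0.24, 0.19 and 0.11 in the 3 dm-αKG libraries and between −0.0054 and 0.01 in the controls. Within 100 bp of the start the same medians were 0.09, 0.10 and 0.05, lower than the downstream values in each of the 3 libraries.

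Downstream members were also weaker, and weakly accessible members had larger fold changes, so that the zones were compared again within ranges of level. Among members with a mean count over all libraries of 60 to 200, the median log2 fold change was 0.19 downstream, 0.13 within 100 bp and 0.11 upstream. Among members at 200 or more the medians were 0.07, 0.05 and 0.04, and among those under 60 they were 0.24, 0.17 and 0.16. The downstream zone thus had the highest median in each of these 3 ranges of level. Within each range, however, downstream members remained weaker than those within 100 bp. Control medians were 92.2 against 116 at 60 to 200, 269 against 343 at 200 or more and 38.0 against 41.4 under 60. The ranges thus did not fully match the level, and its remaining part in the difference was not tested. Under the GC offset the median was 0.10 downstream and −0.006 within 100 bp. The balance within 100 bp then turned, with 215 members higher and 375 lower, whereas downstream 458 were higher and 149 lower. Among members in both of the authors' peak lists, the medians were 0.16 downstream, 0.08 within 100 bp and 0.07 upstream.

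**Figure D3:**
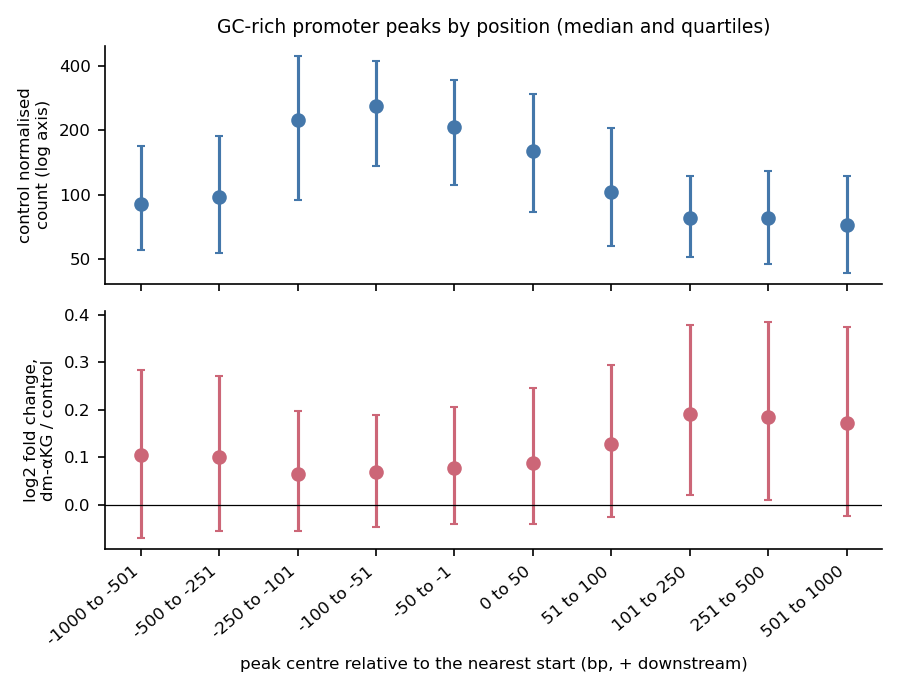
GC-rich promoter peaks by the distance of their centre from the nearest protein-coding start (bp, downstream positive), with the control normalised count on a log axis above and the log2 fold change below; points are medians and bars quartiles. Control counts were highest between 250 bp upstream and 50 bp downstream, where the fold changes were lowest.

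The same contrast appeared within genes. In the 10055 genes with several members, the strongest member by mean count over all libraries had a median log2 fold change of 0.06, and the 20053 other members had 0.16. Taking the mean of the other members minus the strongest member of the same gene, the median gene differed between treatments by 0.11, and the 3 dm-αKG libraries lay above the 3 controls (exact permutation test, p = 0.1, adjusted p = 0.133). The other members were weaker, with a median control count of 78.7 against 273, and included rows of a single peak list. This test was not repeated at like levels or among members in both lists, so that it cannot separate these from position within the gene. Among the 130 more accessible members, 114 were not the strongest of their gene (87.7%, against 59.2% of all members) and 90 were centred more than 100 bp downstream (69.2%, against 37.4%). Their median control count was 29.5. At the 107 genes concerned, the strongest member had a median log2 fold change of 0.17 and a median control count of 258. Of these strongest members 14 were higher at adjusted p below 0.01, beside 368 (3.66%) over all 10055 genes. The 107 genes were picked because another of their members was called in the same data. Of the 130, 90 were in the authors' dm-αKG peak list only and 38 in both lists. Members of the dm-αKG list alone are in the table because a peak was called there and not in control, so that they had to be high with dm-αKG. They had a median log2 fold change of 0.41, with 90 more and none less accessible, and members of the control list alone had 0.02, with 2 more and 10 less accessible. Among members in both lists 38 were more and 10 less accessible, with a median of 0.10, so that the count of 130 against 20 rests largely on rows called in one treatment. Over all members 85.3% were in both lists, 8.35% in the dm-αKG list only and 6.38% in the control list only, against 71.4%, 13.2% and 15.4% of all peaks.

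The few less accessible members were often poor in CpG. Of the 20, 11 had a CpG observed over expected below 0.4, a range that held 1854 of the 33894 members. Of these 1854 CpG-poor members, 0.593% were less accessible, against 1.96% of all peaks. At adjusted p below 0.01 alone, 4.31% were lower and 4.64% higher, against 6.54% and 3.34% of all peaks. At ratios of 0.8 to 1 only 0.672% were lower and 4.45% higher. GC-rich peaks away from promoters had a like gradient, with 7.64% lower below 0.4 and 1.14% lower at 0.8 to 1. The median log2 fold change was 0.08 in CpG-poor members and 0.11 at ratios of 0.8 to 1. In numbers, 80 CpG-poor members were lower and 86 higher. With GC offsets 105 were lower and 58 higher, and with DESeq2 51 and 33, so that which direction was the more frequent depended on the method.

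Among the less accessible members, the peak 12 bp upstream of a start of MTA2, a subunit of the NuRD chromatin remodelling and deacetylase complex, had the smallest adjusted p. It lay in an intron of a longer transcript of the gene. Its normalised counts were 338, 339 and 380.2 in the controls and 120, 148 and 162 with dm-αKG, which gave −1.33 ± 0.11 (log2 fold change ± SE; adjusted p = 1.4e-16). The treatments were far apart. The strongest member of MTA2, at chr11:62601691-62601905, was at 669 ± 10.7 in control and 697 ± 45.2 in dm-αKG cells (SD, n = 3; adjusted p = 0.655), so that the CpG-poor peak passed the test and the main peak of the gene did not.

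The peak of CCM2, which encodes a scaffold protein of the cerebral cavernous malformation pathway, lay in an intron 258 bp downstream of a start and fell from 208, 205 and 213 to 110.4, 89.8 and 105 (log2 fold change −1.02 ± 0.14, adjusted p = 8.0e-09). At FADS3, a member of the fatty acid desaturase family, an intronic peak 503 bp downstream of a start was at 172, 141 and 138 in controls and at 63.8, 64.1 and 70.4 with dm-αKG (−1.20 ± 0.17, adjusted p = 1.9e-08). The PDE6B peak, 337 bp upstream of a start of this rod photoreceptor phosphodiesterase gene, fell from 94.8, 89.6 and 106.9 to 43.0, 41.1 and 47.9 (−1.14 ± 0.20, adjusted p = 8.1e-06). In none of these 3 did the treatments overlap, and the strongest member of each gene did not pass (adjusted p = 0.454, 0.771 and 0.199). The PDE6B peak was in the control peak list only.

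The fifth, at a start shared by REXO5, which encodes an RNA exonuclease, and the neighbouring ERI2 (chr16:20807101-20807307, in an untranslated region), had a CpG observed over expected of 0.729 and was thus unlike MTA2 and PDE6B in sequence. It fell from 89.4, 76.4 and 71.7 to 36.6, 32.1 and 28.4 (−1.26 ± 0.22, adjusted p = 9.9e-06).

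The more accessible members were led by a peak 170 bp upstream of a start of GDF15, a stress-induced cytokine of the TGF-β superfamily. Its counts were 232, 195 and 238 in controls and 445, 443 and 459.5 with dm-αKG (log2 fold change 1.03 ± 0.09, adjusted p = 5.2e-15). The dm-αKG libraries were nearly level with each other and well above the controls. This peak, at chr19:18374453-18374668, was not the strongest member of GDF15, which lay at another start of the gene and rose by a smaller 0.56 ± 0.09 (adjusted p = 6.1e-07).

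H2AX encodes the histone variant that is phosphorylated at DNA breaks. Its peak, 440 bp downstream of the start in a coding exon, went from 69.8, 82.2 and 69.2 to 172, 158 and 171 (1.17 ± 0.16, adjusted p = 5.9e-09) and was the stronger of 2 members. EP300 encodes the acetyltransferase p300, and a peak 21 bp upstream of one of its starts went from 59.0, 45.2 and 44.9 to 163, 142 and 83.8 (1.42 ± 0.19, adjusted p = 6.7e-09). In both the treatments were apart, with dm-αKG replicate 3 the lowest of its group at EP300. The strongest EP300 member, at 568 ± 46.2 in control and 653 ± 33.9 in dm-αKG cells, did not pass the test (adjusted p = 0.044 against the limit of 0.01).

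At SCRIB, which encodes a scaffold of basolateral cell polarity, a peak 128 bp upstream of a start, in an intron of a longer transcript, went from 100.2, 119 and 106 to 218, 241 and 193 (1.00 ± 0.13, adjusted p = 7.6e-09). EEF1A1, which encodes the main translation elongation factor, was decided by a single library. Its peak (chr6:73520360-73520559), 131 bp downstream of the start in an untranslated region, was at 92.1, 104 and 130.0 in controls and at 529, 139 and 162 with dm-αKG (1.48 ± 0.19, adjusted p = 1.5e-09). Without dm-αKG replicate 1 the log2 fold change was 0.48 (adjusted p = 0.0575), and DESeq2 did not call the peak (adjusted p = 0.162). The peak was in the dm-αKG peak list only. The gene has processed copies elsewhere in the genome with which short reads can be shared, which was not tested.

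**Figure D4:**
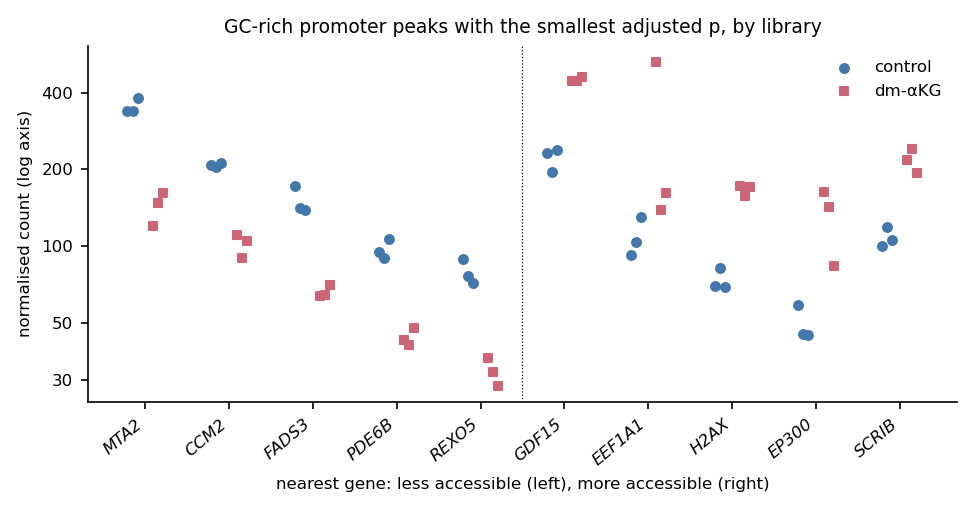
Normalised counts (log axis) in each of 6 libraries at the 5 less and 5 more accessible GC-rich promoter peaks with the smallest adjusted p, named by the nearest gene; circles are control and squares dm-αKG libraries. The treatments did not overlap at any of the 10, and at EEF1A1 dm-αKG replicate 1 stood at 529 while the other two dm-αKG libraries were at 139 and 162.

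The most accessible members did not pass the test. The strongest, at KAT6B, which encodes a histone acetyltransferase of the MYST family, had counts of 2197, 2029 and 2160 in controls and 2045, 2218 and 2326 with dm-αKG (log2 fold change 0.04 ± 0.05, adjusted p = 0.64). COX14, a cytochrome c oxidase assembly factor, followed with 1961, 1764 and 1865 against 1942, 2040 and 2027 (0.10 ± 0.05, adjusted p = 0.19). The treatments overlapped at both. The peaks shared by CNGA4 and FHIP1B, by PNKD and AAMP, and by KCTD9 and CDCA2 had control means of 1703, 1697 and 1608 and log2 fold changes of −0.01, 0.02 and 0.01. No single member held more than 0.0119% of a library's counts.

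The genes with the most members have many alternative starts. SEPTIN9, a septin of the cytoskeleton, had 17 members on chromosome 17. Their control counts ran from 28.2 to 342 and their log2 fold changes from −0.34 to 1.17. At adjusted p below 0.01, 5 were higher and 1 lower, beside 4.91% and 1.13% of all members. IQSEC1, an ARF exchange factor, had 16 members and none passed the test in either direction (log2 fold changes −0.37 to 0.60). Of the 16 members of PLEC, the cytolinker plectin, 2 were higher. CPLX2, a regulator of synaptic vesicle release, and the imprinted GNAS locus, which encodes the stimulatory G protein α subunit, had 12 each, with no member past the threshold and medians of −0.10 and 0.20.

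Groups of genes were then compared by the strongest GC-rich promoter peak within 1 kb of a start of each gene. Over all 14537 genes, 4.2% were higher and 1.73% lower at adjusted p below 0.01, with a median log2 fold change of 0.06, and the counts of each list are read as a description beside these shares. The counts rest on few genes and moved with the settings, so that each range below is over 15 alternatives, the leaving out of each library included. Protein synthesis and turnover genes had a few increases and no decrease. Of the cytosolic ribosomal proteins, 71 of 79 had a member, 5 were higher and none lower, with a median of 0.10. The count of higher genes ranged from 1, without control replicate 3, to 6, and was 2 with DESeq2 or without dm-αKG replicate 2. RPL19 rose from 70.4 ± 9.95 to 117 ± 9.16 (SD, n = 3; log2 fold change 0.72 ± 0.17, adjusted p = 0.0012) and RPL23A by 0.90 ± 0.23. Ribosomal protein genes have many processed copies, and reads can be shared with them, which was not tested.

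Translation initiation factors had 4 of 39 members higher and none lower (median 0.10), among them EIF4H (0.40 ± 0.09), which stimulates the helicase eIF4A, EIF2S3 (0.43 ± 0.11), a subunit of eIF2, and EIF4A2 (0.51 ± 0.14). The count was 1 with DESeq2, and also when control replicate 1, dm-αKG replicate 1 or control replicate 3 was dropped. Of 18 aminoacyl-tRNA synthetases with a member, 2 were higher (QARS1, 0.40 ± 0.10, and VARS1, 0.41 ± 0.11; median 0.12), and of 32 proteasome subunits 1 was (PSMA7, 0.46 ± 0.12; median 0.11). Spliceosome components had 2 of 35 higher, SRSF2 (0.39 ± 0.09) and the weakly accessible SF3B5 (1.00 ± 0.28), with a median of 0.14. None of the members of these 3 lists was lower, also under the alternatives, and the counts of higher genes ranged from 1 to 3 for synthetases and from 0 to 3 for the other two lists.

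Energy metabolism genes had few changes at their strongest peak. Respiratory chain subunits had 4 of 52 higher and none lower (median 0.09), with NDUFA11 of complex I going from 305 ± 36.8 to 414 ± 36.7 (0.44 ± 0.09, adjusted p = 1.8e-04), COX8A of complex IV rising by 0.64 ± 0.15 and NDUFS3 by 0.43 ± 0.10. The count ranged from 1, without dm-αKG replicate 2, to 7, with total count or upper quartile scaling. The TCA cycle, pyruvate and glutamate enzymes had 1 of 38 past the threshold, DLAT, the acetyltransferase of the pyruvate dehydrogenase complex, which fell by 0.31 ± 0.08 on the log2 scale (median of the list 0.06), against 3 lower with GC offsets. Of 29 histone acetyltransferases and deacetylases none passed in either direction at the strongest peak (median 0.04), and 2 were lower with GC offsets. Among 39 α-ketoglutarate dioxygenases 3 rose and none fell (median 0.10). These were PLOD3, a collagen lysyl hydroxylase (0.46 ± 0.09, adjusted p = 5.9e-05), KDM6B, an H3K27 demethylase (0.33 ± 0.09), and TET1, a DNA hydroxylase (0.38 ± 0.11). At KDM6B the treatments overlapped. With GC offsets 1 dioxygenase gene was higher and 1 lower (median 0.03), and only 1 was higher with DESeq2 or after dropping dm-αKG replicate 1 or either of control replicates 1 and 3. DNA replication genes had 1 of 36 higher, RPA1 (0.34 ± 0.08; median 0.05), with a range from 0 to 3. Over all members, not only the strongest, 10 of 96 near respiratory chain genes were higher and 2 of 86 in the TCA cycle list. For acetyltransferases and deacetylases it was 6 of 86, for dioxygenases 12 of 104 and for replication genes 1 of 79, beside 4.91% of all members. At most 1 member of each of these lists was lower.

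Stress lists held changes in both directions. Among 24 NRF2 target genes, TXNRD1, thioredoxin reductase, fell from 473 ± 19.7 to 352 ± 15.2 (−0.43 ± 0.08, adjusted p = 6.3e-05), while TALDO1 and BLVRB were 2 of the 3 that rose (0.40 ± 0.10 and 0.37 ± 0.09; median of the list 0.15). Integrated stress response genes had 1 of 23 lower, PCK2, the mitochondrial phosphoenolpyruvate carboxykinase, from 747 ± 9.19 to 540.2 ± 14.3 (−0.47 ± 0.07, adjusted p = 4.8e-07), and 1 higher, GDF15 (median 0.03). Of 29 hypoxia response genes 2 fell, the glucose transporter SLC2A3 (−0.51 ± 0.07, adjusted p = 1.5e-07) and lactate dehydrogenase LDHA (−0.41 ± 0.08), and 3 rose, SLC2A1 among them (0.34 ± 0.08; median 0.01). SLC2A3 and SLC2A1, both glucose transporters, thus moved in opposite directions. Immediate early and AP-1 genes had 2 of 23 higher, NR4A1 and KLF2 (0.31 ± 0.08 and 0.43 ± 0.13; median 0.12), and cholesterol genes 2 of 24, among them INSIG1 (0.27 ± 0.08; median 0.01). Neither list had a member that was lower, but each had 1 with GC offsets. Counts of higher genes ranged from 0, without dm-αKG replicate 1, to 5 for NRF2 targets, from 0 to 4 for hypoxia and cholesterol genes, from 0 to 2 for immediate early genes and from 1 to 2 for stress response genes, and that of lower hypoxia genes from 1 to 5.

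At their strongest peak, pluripotency and trophectoderm genes had medians below 0. Pluripotency genes had 4 of 29 lower and 2 higher, with a median of −0.07. The imprinting factor ZFP57 fell from 190.5 ± 6.54 to 115 ± 35.2 (−0.68 ± 0.14, adjusted p = 2.1e-04) and the naive factor KLF17 from 404 ± 43.3 to 310.1 ± 20.3 (−0.39 ± 0.09), while SUSD2, a surface marker of naive cells, rose from 746 ± 21.8 to 936 ± 5.69 (0.33 ± 0.07, adjusted p = 1.1e-04). Trophectoderm genes had 1 of 26 lower, ELF3 (−0.46 ± 0.08, adjusted p = 7.5e-06), and 1 higher, DLX3 (0.30 ± 0.09), with a median of −0.04. Over all members near pluripotency genes, by contrast, 5 of 60 were lower and 7 higher with a median of 0.04, and the 79 members near trophectoderm genes had a median of 0.10. Without 1 library the medians at the strongest peak moved to −0.03 for pluripotency genes (without dm-αKG replicate 1) and 0.002 for trophectoderm genes (without control replicate 1). The count of lower pluripotency genes ranged from 1, without control replicate 1, to 7, with GC offsets, and that of lower trophectoderm genes from 1 to 3. Of 72 developmental transcription factors 2 fell, LHX6 (−0.45 ± 0.08) and GBX2 (−0.49 ± 0.12), and none rose (median 0.004), with 1 to 4 lower and at most 1 higher under the alternatives. Their median control count of 169 was below the 275 of all genes.

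Directions of list medians near 0 depended on the scaling. With GC offsets the medians of the TCA cycle, acetyltransferase and deacetylase, DNA replication, integrated stress response, hypoxia, cholesterol and developmental lists lay between −0.06 and −0.02. Pluripotency and trophectoderm genes were at −0.12 and −0.10 under the same offsets. Of up to 3 passing members taken from each list, 38 in all, 15 no longer passed with GC offsets, all of them higher ones and among them EIF4A2, EIF4H, INSIG1, KDM6B, KLF2, NR4A1, PSMA7, RPA1, SLC2A1, SRSF2, TALDO1, TET1, VARS1 and DLX3.

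**Figure D5:**
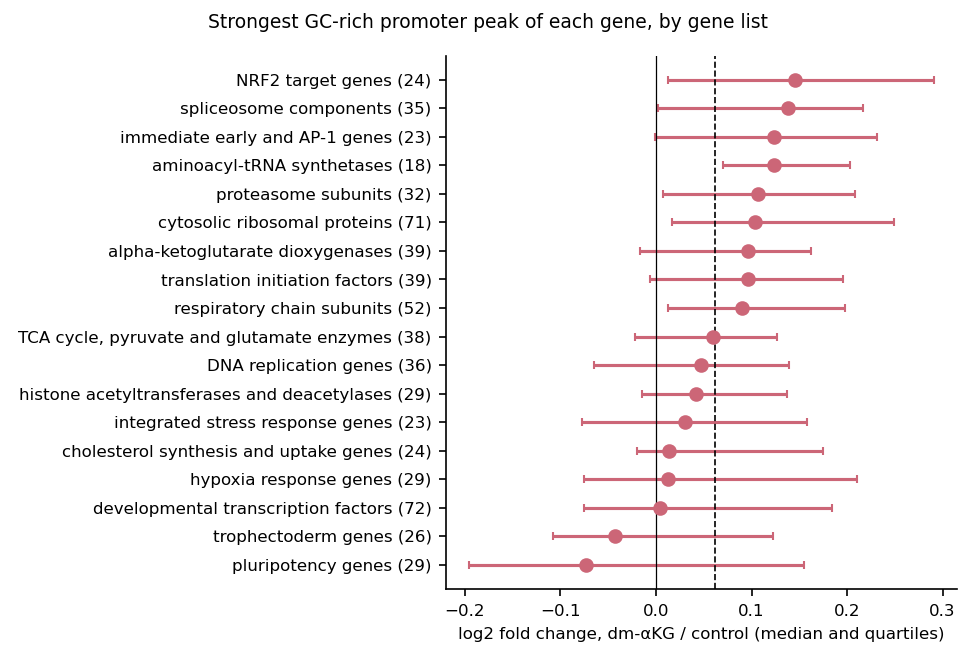
Log2 fold change (dm-αKG over control) of the strongest GC-rich promoter peak of each gene in 18 gene lists; points are medians, bars quartiles, the number of genes with a peak stands in brackets, and the dashed line is the median of all 14537 genes at 0.06. Pluripotency and trophectoderm genes had medians of −0.07 and −0.04 and NRF2 target genes 0.15, an order that changed when single libraries were left out.

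Among all members near listed genes, not only the strongest, 10 of 1506 were more accessible (0.664%) and none less accessible at the study's thresholds, against 0.384% and 0.059% of all members. Besides GDF15 and EP300 these lay at KDM5B, an H3K4 demethylase (log2 fold change 1.03, from 85.6 to 172), at KLF5 (1.11), at TALDO1 (1.00), at RPL27 (1.06), at EIF3B (1.04), at EIF3K (1.05) and at RPS15, which had 2 (1.09 and 1.08). Of these 10 peaks, named after their values were seen, control means outside GDF15 ranged from 26.1 to 85.6. The peaks at KLF5, RPL27, EIF3B and EIF3K and the RPS15 peak with 1.08 were in the dm-αKG peak list only. They are thus in the table because a peak was called with dm-αKG and not in control. At adjusted p below 0.01 alone, 127 of the 1506 members were higher (8.43%) and 16 lower (1.06%), against 4.91% and 1.13% of all members. By list the share of higher members ran from 0% near developmental transcription factors to 19.3% near translation initiation factors.

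The labelled cell type was checked at its markers. Of 8 markers of naive pluripotent cells 7 had a GC-rich promoter peak, NANOG having a GC-poor one, and the strongest promoter peaks of the 8 had control counts from 200.1 to 746 (median 377). Markers of primed cells (5 genes) had a median of 168, from SOX11 at 64.6 to CD24 at 246 and DUSP6 at 469, those of trophectoderm (5 genes) a median of 257, and those of fibroblasts (6 genes), the type of the feeder cells, a median of 151. COL3A1 and LUM had no promoter peak and VIM was at 47.3, but COL1A1 and COL1A2 were at 190.2 and 198. The peaks of CD24 and DUSP6 thus lay within the range of the naive markers, and those of the collagen genes just below it. The trophectoderm markers GATA2 (256.8), CDX2 (262.6) and TFAP2C (431.5) also lay within that range, with GATA3 (149.9) and KRT7 (56.8) below it. None of the fibroblast markers with a peak passed the test between treatments, with log2 fold changes from 0.01 to 0.45. The feeder cells were from mouse and the reads were aligned to the human reference. Counts at these human genes therefore cannot measure how many feeder cells remained.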

How the data were processed

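Each library was sequenced by the authors and run through the ENCODE ATAC-seq pipeline on hg38, with Bowtie 2 alignment, 1 run per treatment. MACS2 called peaks in single replicates, and the irreproducible discovery rate selected the peaks kept for each treatment. Per the methods, these peaks were cut to 200 bp around the summit and merged, and raw counts per peak and library were deposited (bedtools 2.28.0). The deposited peak lists give a fold enrichment ratio per peak. The 6 libraries held 13025674 to 26828622 counts, which sets the precision. Of 33894 members, 33514 had at least 10 counts in every library. Reads outside peaks were not analysed here.

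The centre of each row was compared with 78462 protein-coding starts of GENCODE 44, and GC content, CpG and motifs were read from hg38. Counts were fitted across all 171517 peaks with edgeR 4.0.16 (TMM factors 0.991 to 1.01, quasi-likelihood test, Benjamini-Hochberg), without a replicate block. Errors of fold changes are the absolute log2 fold change over the square root of F. Values per library are log2(normalised count + 1), and CPM medians used log2(CPM + 0.5). On simulated counts for this comparison over 171517 peaks, 191 of 200 changed peaks were recovered with 1 false call. The simulated log2 fold changes were all beyond the threshold of 1, and the weakest peaks were not among those changed. No GC dependence of single libraries was simulated, so that smaller changes and GC effects are not covered. Alternatives were RLE, total count and upper quartile scaling, GC offsets in bins of 2 percentage points, DESeq2 1.42.0, a filter of 10 counts, autosomes, other member limits, a replicate block and leaving out each library.

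Named peaks were the 5 less and 5 more accessible members with the smallest adjusted p whose treatments did not overlap, the 5 with the highest control mean, the 5 genes with most members, and up to 3 passing members of each of 18 gene lists. Members and lists were chosen with earlier results of these data known, and the comparisons at matched GC, within genes and within both peak lists were added after the data were seen. Lists got no set test. Some results of the naming rule are not reported here.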

Additional observations from a re-analysis of the deposited data

How the results depend on the processing

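Counts moved with the settings, and under GC offsets some directions did as well. With DESeq2, 198 members were lower and 660 higher at adjusted p below 0.01, against 382 and 1664 with edgeR. GC offsets gave 779 lower and 831 higher, 77 more accessible and a median log2 fold change of 0.028, and GC offsets with the replicate block gave 802, 862, 79 and 0.027. The median change of GC-rich minus GC-poor promoter peaks was −0.0903 with GC offsets, which were fitted over all peaks, against 0.04 without them. Why this direction turned was not tested. Leaving out 1 library at a time gave 89 to 213 more accessible members, 183 to 401 lower and 670 to 2153 higher ones. The share of less accessible members was 0.034% at a GC limit of 65% and 0.104% at 55%, against 0.059%. Members in both peak lists, an alternative chosen after seeing the data, had 10 less and 38 more accessible, with 348 lower and 1313 higher. RLE, total count and upper quartile scaling, the count filter, autosomes alone and other limits on the start left the counts over all members that are not named here within 1.5 times; counts of the gene lists moved more and are given with each list.

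The replicate numbers did not pair the libraries: deviations of same-numbered libraries correlated at −0.016, 0.001 and 0.017. With the replicate block 20 members were less and 130 more accessible, as without it. Of 48 named peaks that passed the test, 20 passed under each of the 15 alternatives that included them, and none changed direction.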
